A study of Artemia franciscana with 14 samples.

Results

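The comparison of adults with embryos at 4 days post-fertilization (dpf) in *Artemia franciscana* rested on 8 of the 14 libraries of the series, chosen by their titles: 1 adult female, 1 adult male, and 3 female and 3 male embryos at 4 dpf. All animals were wild-type. Adults were dissected and their germline was removed before RNA extraction, whereas each embryo was extracted whole, and the sex of the embryos had been assigned by the authors from expressed single-nucleotide polymorphisms on the Z chromosome. The adult RNA was brought to one input for cDNA synthesis, while embryo RNA was below the detection limit, so stage, tissue, germline removal and input cannot be told apart in these data. The age of the adults was not given in the sources used here. No gene in the table marks a tissue or cell type under a name that the sources pair with it, so the adult and embryonic material could not be checked against defining markers.

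*A. franciscana* is a brine shrimp with a ZZ/ZW system, in which females carry a single copy of the differentiated region of the Z, called Z(diff), and both sexes carry paired copies of the pseudoautosomal region (PAR) and of the autosomes. In ovoviviparous broods the embryos develop inside the mother and leave her as swimming nauplii, which molt through larval stages before they reach adulthood. An embryo at 4 dpf is close to hatching and lives on stored yolk, while an adult feeds, moves and has differentiated muscle, gut and cuticle. The table names genes by number (jg followed by digits), and 0 of its identifiers matched the RefSeq gene table, so most genes are described here by number and a role is given only for those that the study named.

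Library totals were 2669131 to 7463397 reads in the 6 embryos, 3342959 in the female and 1840926 in the male adult. Of 19421 genes in the table, 14124 had a read in the 8 libraries and 10417 passed a filter on low counts and were tested. Genes with a read numbered 9481 to 11352 in the embryos, against 7399 in the female and 7064 in the male adult. When every library was thinned to 1840926 reads the order stayed, with 9340 to 10760 genes in the embryos, 7190 in the female and 7064 in the male adult. Across the tested genes Pearson's r of log2 CPM (read counts relative to library size after TMM scaling, with 1 CPM added) was 0.825 to 0.908 between embryos, 0.353 to 0.413 between an adult and an embryo, and 0.616 between the adults, genes not being independent replicates. No pair of libraries agreed within sampling noise. Nothing in the labels says that the embryos came from separate broods, so p-values measure the spread between these samples.

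Both adults lay above all 6 embryos for 1454 genes, 14% of those tested, and below all 6 for 3032 genes, 29.1%. The edgeR quasi-likelihood test called 1139 genes higher (10.9%) and 1963 lower (18.8%) in adults at an adjusted p under 0.05. Of the genes above, 1030 were called higher, and of those below, 1954 were called lower. Only 118 of the 3102 calls fell on genes whose groups overlapped. An exact permutation test of 2 adults against 6 embryos cannot go below a two-sided p of 0.0714 for a single gene. Each adjusted p thus rests on the model's spread, a gene's own moderated towards that shared across genes. Most residual degrees of freedom came from the embryos, and the spread of the adults includes the sex difference. With the male as the only adult, 2666 of 11331 tested genes lay above all embryos and 4505 below. With the female as the only adult, 2942 of 11388 lay above and 4331 below. There 1 adult has to lie apart rather than 2, and other genes passed the filter, so these counts are not comparable with 1454 and 3032.

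**Figure D1:**
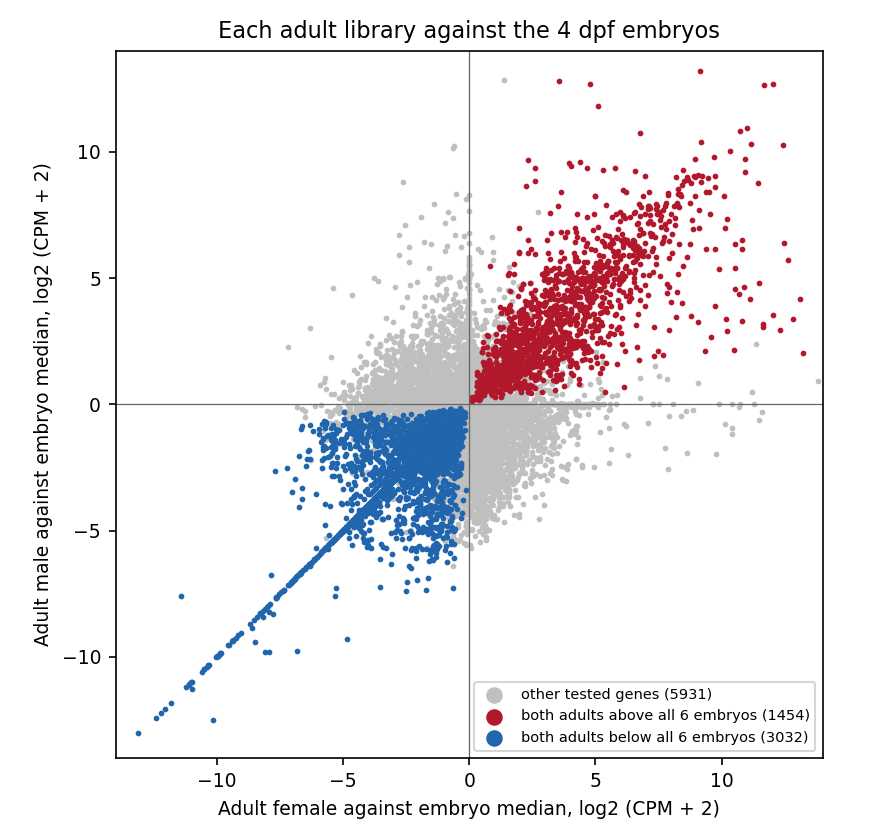
Each point is 1 of the 10417 tested genes, with its level in the female (x axis) and male (y axis) adult as a log2 difference from the median of the 6 embryos at 4 dpf, after adding 2 CPM. The 1454 genes above all embryos fill the upper right, the 3032 genes below all embryos fill the lower left, and genes in the other corners differ in direction between the adults.

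The TMM scaling left the median tested gene at a log2 fold change of -0.69, adults minus embryos, so directions are relative to that shift. With the adult factors moved to bring the median gene to 0, a choice made after seeing the data, 1650 genes were called higher and 1499 lower, which turned the share of higher calls from 36.7% to 52.4%. That centring raised every adult level relative to the embryos. That all 1139 genes called higher stayed called higher therefore follows from the shift and is no check of them. Of the 1963 genes called lower, 1499 stayed called lower. No gene went from a higher call to a lower one or the reverse under any of the 9 alternatives that kept all 8 libraries. Without the adult female or without the adult male, 3 and 6 genes did.

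The separated genes held most of the reads. Genes above all embryos took 57.7% of the reads on tested genes in the adult with the larger share and 54.3% in the other, against 4.27% to 5.23% in the embryos at 4 dpf. Genes below all embryos took 62.2% to 64.4% in the embryos and 11.96% and 15.1% in the adults. In 6 embryos at 1–2 dpf, which played no part in choosing the genes, the same sets took 4.62% to 5.21% and 55.3% to 58.5%. The share of genes below all embryos was 24.5% among genes with a mean of 1 to 10 CPM, 28.5% at 10 to 100 CPM, 43.1% at 100 to 1000 CPM and 53.8% above 1000 CPM. The share above all embryos was 7.93%, 16.2%, 21.6% and 24.9% in the same classes, which are unequal in counting precision. Of the 150 genes under 1 CPM, 1.33% lay above and 2% below. The classes use the mean over the 8 libraries, 6 of them embryos, so genes high in embryos fall more readily into the upper classes. The rise in the share below is thus partly built in.

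**Figure D2:**
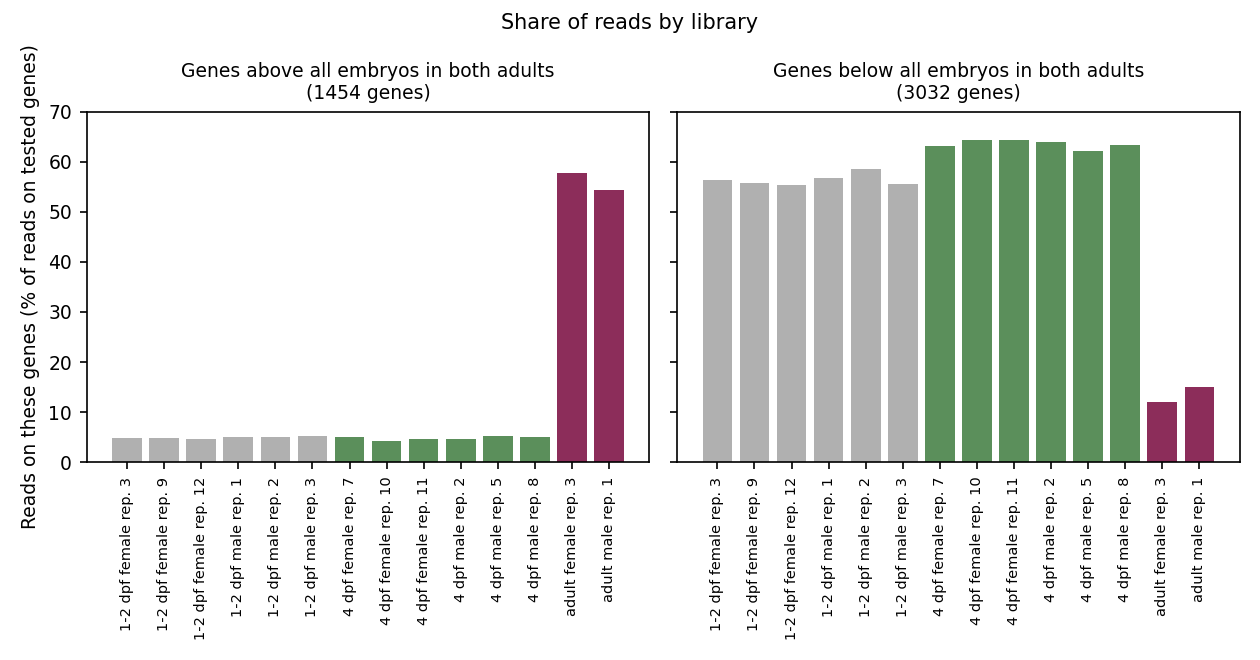
Bars give, for each of the 14 libraries, the share of reads on tested genes that fell on the 1454 genes above all 4 dpf embryos (left) or on the 3032 genes below them (right). The sets were chosen on the 4 dpf and adult libraries, so their bars describe the choice, and the 1–2 dpf bars, at 4.62% to 5.21% and 55.3% to 58.5%, do not.

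Separation was often wide. Taking the gap as the lower adult over the highest embryo, or over 3 reads where the embryos had fewer, 981 of the 1454 genes above had a gap of at least 2-fold, 458 of at least 10-fold and 72 of at least 100-fold. Another 165 had a gap under 1.2-fold. For the 3032 genes below, 1355 had a gap of at least 2-fold, 300 of at least 10-fold, 59 of at least 100-fold, and 821 one under 1.2-fold. Many genes below had no adult reads to compare. Both adults had 0 reads for 1324 of them, at most 3 reads for 1535, and more than 3 reads in each for 943. Among the genes above, 84 had 0 reads in all 6 embryos. That condition is stricter than 0 reads in both adults, since the embryos were more libraries and mostly deeper ones. Genes with 0 reads in both adults and 10 or more in every embryo numbered 869, and genes with 0 reads in every embryo and 10 or more in both adults numbered 76. For the same reason these counts cannot be set against each other as losses and gains. In these bulk libraries, fewer cells of a type and less RNA per cell cannot be told apart.

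The gene with the smallest p among those higher in adults was jg8888. It had 4702 CPM in the adult female and 4430.1 CPM in the adult male, against a lowest of 37.6, a median of 54.4 and a highest of 74.0 CPM in the embryos. The adults were close to each other and far above every embryo, by a log2 fold change of 6.40 (SE 0.26, edgeR adjusted p = 1.99e-06). At 1–2 dpf its level was also low, at 40.2 to 103 CPM.

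jg9890, a gene within Z(diff), stood at 837 CPM in the adult female and 755 CPM in the adult male, with 11.9, 13.3 and 18.3 CPM as the lowest, median and highest embryo. Its log2 fold change was 5.81 (SE 0.27, edgeR adjusted p = 3.16e-06). The gene was named for its small p, a choice that favours genes whose adults are close, so their closeness says nothing about copy number. In jg15672 the male was the higher adult, at 5412 CPM against 3030.2 CPM in the female. Its embryos had 47.4, 58.0 and 82.4 CPM, again without overlap, for a log2 fold change of 6.12 (SE 0.30, edgeR adjusted p = 3.56e-06).

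For jg14829, jg13993 and jg179, 5 of the 6 embryos had 0 reads and 1 embryo had 1 read. jg14829 reached 706 CPM in the adult female and 1246 CPM in the adult male, a ratio of the adult mean to the pooled embryo level, which is all embryo reads over the summed scaled library sizes, of 31671 (95% counting interval 5684 to 1250928, edgeR adjusted p = 4.20e-06). The single embryo read sets the width of that interval. jg13993 had 285 and 433 CPM in the adult female and male, with a ratio of 11648 (2091 to 460057, edgeR adjusted p = 6.52e-06), and jg179 had 328 and 196 CPM with a ratio of 8501 (1526 to 335783, edgeR adjusted p = 1.41e-05). These intervals cover counting error only. All 3 genes were at or near 0 at 1–2 dpf too, with highest levels of 3.22, 0.904 and 0 CPM.

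The 5 separated genes with the highest adult levels were jg16625, jg13986, jg5859, jg18675 and jg10837. jg16625 had 27075 CPM in the adult female and 24510.2 CPM in the adult male, or 1.81% and 2.21% of their reads. The embryos had 58.1, 172 and 368 CPM as lowest, median and highest, so the gene was detected in all of them, with a log2 fold change of 7.06 (SE 0.57, edgeR adjusted p = 8.48e-05). At 1–2 dpf it had 0 to 9.14 CPM, so every embryo at 4 dpf lay above every earlier one. jg18675 had that order as well, with 0.218 to 7.79 CPM at 1–2 dpf, 155 to 686 CPM at 4 dpf, and 16988 and 13120.4 CPM in the adult female and male (log2 fold change over 4 dpf 5.26, SE 0.52, edgeR adjusted p = 2.03e-04).

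jg13986 and jg5859 lacked such a middle level. jg13986 had 15429.5 CPM in the adult female and 30429.7 CPM in the adult male, where it took 2.74% of the reads, against 0.195 to 10.1 CPM at 4 dpf and 0 to 12.2 CPM at 1–2 dpf. jg5859 had 14097 and 22355 CPM in the adult female and male, with 0 to 13.6 CPM at 4 dpf and 0 to 11.02 CPM at 1–2 dpf. Their log2 fold changes were 12.70 (SE 1.19, edgeR adjusted p = 1.48e-04) and 12.34 (SE 1.48, edgeR adjusted p = 5.67e-04). jg10837 was uneven between the adults, with 1544 CPM in the female and 25312 CPM in the male, and both lay above the 0 to 4.55 CPM of the embryos (log2 fold change 12.87, SE 1.58, edgeR adjusted p = 6.17e-04).

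Among the genes higher in adults, the widest gaps belonged to jg3634, jg20138 and jg16286. jg20138 had 0 reads in all 6 embryos, 10892 CPM in the adult female and 2434 CPM in the adult male, and was at least 6846-fold higher in adults, taking 3 reads in the shallowest embryo as the floor (edgeR adjusted p = 0.00106). jg3634 had 3416 and 3647 CPM in the adult female and male, with reads in 1 embryo only, the male replicate 2, at 1.22 CPM (9 reads), and a ratio of 12732 (95% counting interval 6707 to 27844, edgeR adjusted p = 1.37e-04). jg16286 had 4061 and 3922 CPM in the adults and 0 to 1.65 CPM in the embryos, with a ratio of 14389 (7579.9 to 31468, edgeR adjusted p = 1.43e-04). Neither of these last genes differed between the adults by as much as 10%, with female-to-male ratios of 0.937 and 1.04.

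**Figure D3:**
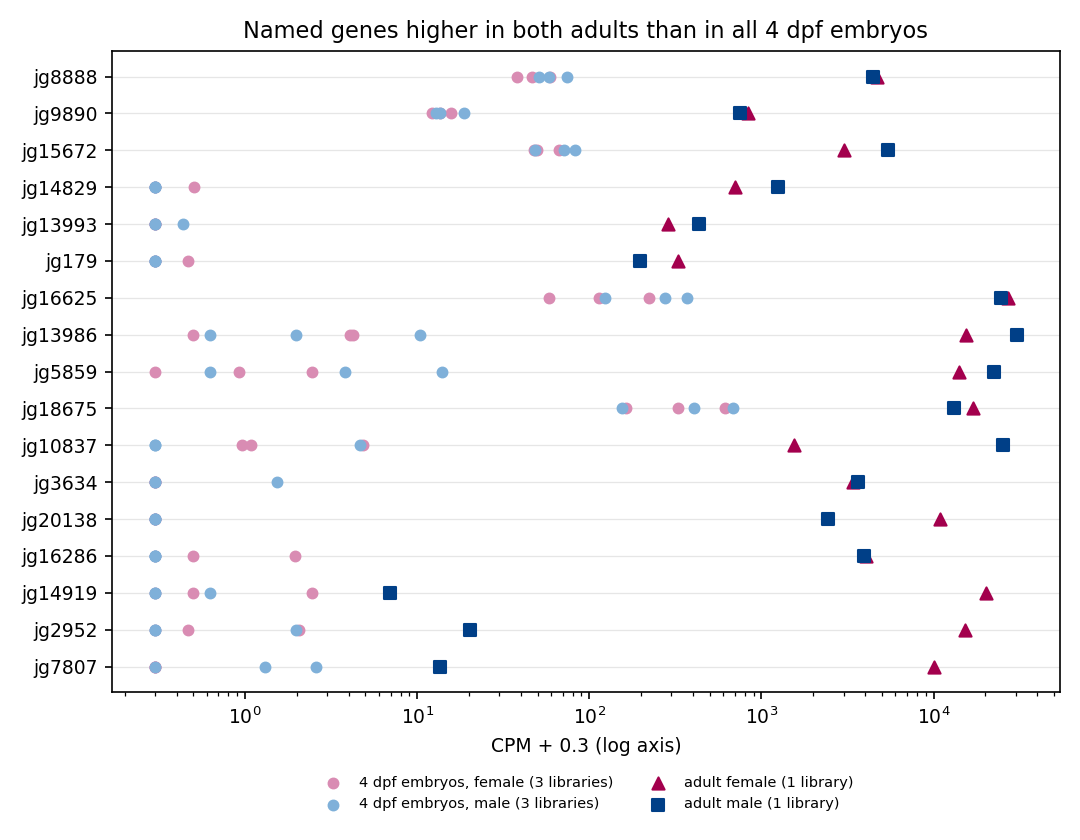
Levels of the 17 named genes that lay higher in both adults than in all embryos at 4 dpf, as CPM plus 0.3 on a log axis, with 1 point per library: circles for the 6 embryos, a triangle for the adult female and a square for the adult male. In the last 3 genes the adult male sits at 6.63 to 19.9 CPM, against a highest embryo of 1.75 to 2.27 CPM. The adult female sits at 10089 CPM or more.

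Each adult sex has 1 library, so a difference between them has no replicate check. Among the 1454 genes above all embryos, the adults were within 2-fold of each other for 849 (58.4%), the female was over 10-fold above the male for 60, and the male over 10-fold above the female for 33. The most uneven called gene was jg14919, with 20214 CPM in the adult female and 6.63 CPM (11 reads) in the adult male, against 0 to 2.14 CPM in the embryos. It took 1.35% of the reads of the adult female. Its introns lie on the plus strand of chromosome 1 of the authors' assembly, between 1790237 and 1799831 in the study's intron table. jg2952 had 15219 and 19.9 CPM in the adult female and male, and jg7807 had 10089 and 13.3 CPM.

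All 3 rested on the female. The edgeR adjusted p of jg14919 was 0.00182 with both adults and 0.236 without the female, that of jg2952 0.00150 and 0.071, and that of jg7807 0.00189 and 0.145. The log2 fold change of the male alone was 3.72 for jg14919, 4.90 for jg2952 and 4.53 for jg7807.

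Among the genes lower in adults, jg14951 had the smallest p and the highest embryonic level. It had 19016, 21759 and 28409 CPM as the lowest, median and highest embryo, up to 2.94% of the reads of a library, and 1 read in each adult. The ratio of the embryo mean to the pooled adult level was 43439 (95% counting interval 12025 to 358689.8, edgeR adjusted p = 9.51e-08). At 1–2 dpf it had 909 to 10312 CPM, so every embryo at 4 dpf lay above every earlier one and the adults lay below both stages. Its introns lie on the plus strand of chromosome 1 of the same assembly, between 3727911 and 3735242.

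jg6029, jg13290, jg21212, jg19098 and jg7513, the next genes by p, had 0 reads in both adults. jg6029 ran from 10379.8 to 12119 CPM over the 6 embryos with a median of 10964 CPM, and was at least 6093-fold lower in adults (edgeR adjusted p = 1.02e-07). The embryos of that gene were tight, the highest lying within 1.2-fold of the lowest. jg13290 ran from 8069 to 10471 CPM and was at least 4863-fold lower (edgeR adjusted p = 2.51e-07). The other genes spanned 2690.1 to 5350.3 CPM in the embryos, and their bounds were at least 2378-fold for jg21212, 1691-fold for jg19098 and 2346-fold for jg7513. In the 1–2 dpf embryos jg6029 had 1122 to 3769 CPM and jg13290 had 433 to 1202 CPM, below every embryo at 4 dpf.

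jg21213 and jg21215 completed the 5 genes with the highest embryonic levels. jg21213 had 7335, 9559.9 and 11821 CPM as lowest, median and highest embryo and no adult reads, for at least a 5279-fold lower level (edgeR adjusted p = 2.32e-06). jg21215 had 8437, 11529.6 and 17091 CPM in the embryos, 8.07 CPM (18 reads) in the adult female and 0 reads in the adult male. Its log2 fold change was -11.48 (SE 1.38, edgeR adjusted p = 5.75e-04).

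**Figure D4:**
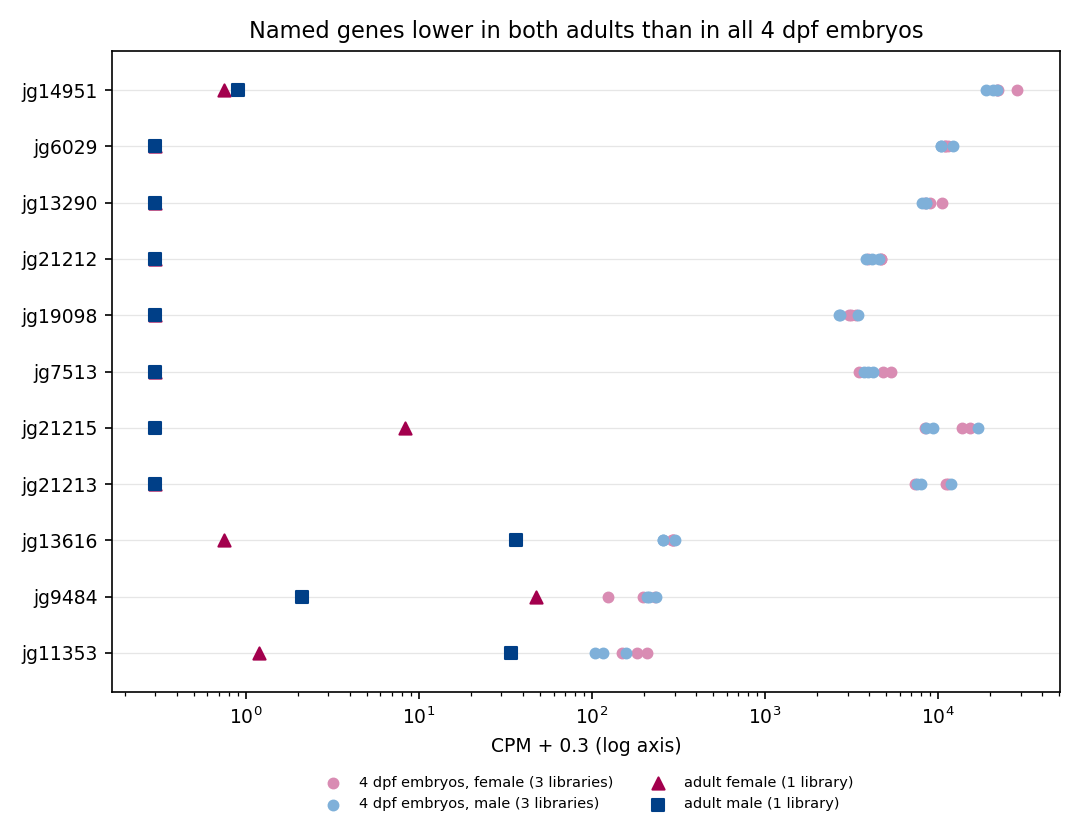
Levels of the 11 named genes that lay lower in both adults than in all embryos at 4 dpf, as CPM plus 0.3 on a log axis, with circles for the 6 embryos, a triangle for the adult female and a square for the adult male. Points at the left edge are 0 reads, and a square covers the triangle where both adults had none; the 8 upper genes have embryo levels of 2690.1 CPM or more.

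Of the 1954 genes below all embryos and called lower, the adults were within 2-fold for 1690, counting levels under 3 reads as 3 reads, against 528 of the 1030 genes above and called higher. The former share includes genes with 0 reads in both adults, which are alike by that rule. The most uneven called genes were jg13616, jg9484 and jg11353. jg13616 had 1 read in the adult female and 36.2 CPM in the adult male, against 255.7 to 301 CPM in the embryos. jg9484 was uneven the other way, with 47.1 CPM in the female and 1.81 CPM in the male, against 124 to 234 CPM, and jg11353 had 0.896 and 33.8 CPM against 103 to 207 CPM. Their edgeR adjusted p of 0.0288, 0.0417 and 0.0489 lay close to the threshold. It passed 0.05 for jg9484 with RLE scaling (0.054), a mean count above 100 (0.0569), a sex covariate (0.0503), centring (0.0893) or 1 of 5 embryos left out (up to 0.0691). For jg11353 it did so with RLE scaling (0.0671), no filter (0.0541), a mean count above 100 (0.075), a sex covariate (0.0695), thinning (0.0653), centring (0.0986) or any 1 embryo left out (up to 0.0785). For jg13616 it did so with centring (0.0529) or without 4 dpf female replicate 10 (0.0506).

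Gene numbers follow the order of gene models along the assembly: of 400 successive pairs placed on one chromosome by the intron table, 397 were in ascending position. Of 643 called genes above all embryos whose next number was also tested, the next gene was of the same kind in 135, or 21.0%, where 9.87% of all next genes were. For the 1244 called genes below, the next was of the same kind in 289, or 23.2%, where 19.4% of all next genes were. The longest stretch, jg21210 to jg21216, held 7 genes lower in adults and contains jg21212, jg21213 and jg21215. Across its 7 genes the adults had 0 reads apart from the 18 reads of jg21215 in the female, while the embryo medians ran from 7.12 CPM for jg21216 to 11529.6 CPM for jg21215. The stretches were picked for their length, so no test applies to them, and near-identical neighbouring copies, which could share or split reads, were not looked for.

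A stretch of 5 genes within Z(diff), jg9896 to jg9900, had 0 reads in both adults. Its embryo medians at 4 dpf were 135.8, 21.0, 222, 49.4 and 24.2 CPM in the order of the numbers, and the largest edgeR adjusted p was 0.00482. At 1–2 dpf jg9900 ranged from 1.34 to 10664.5 CPM with a median of 4646 CPM. The highest 1–2 dpf levels of jg9896, jg9897, jg9898 and jg9899 were 24.7, 1.19, 40.2 and 31.2 CPM. Stretches higher in adults reached 4 genes. In jg5733 to jg5736 all 4 genes had 0 reads in every embryo at 4 dpf, with 122 to 614 CPM in the adult female and 27.1 to 735.0 CPM in the adult male. In jg3436 to jg3439 the male was higher in all 4 genes, with 111 to 1044 CPM against 8.96 to 249 CPM in the female and at most 0.336 CPM in an embryo.

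Z-linked genes were compared because the regions differ in copy number between the sexes. The study's gene numbers place 108 tested genes within Z(diff), 194 within the PAR and 9305 on autosomes. Both adults lay above all embryos for 14 genes of Z(diff) (13.0%) and below for 36 (33.3%), for 27 (13.9%) and 74 (38.1%) of the PAR, and for 1292 (13.9%) and 2657 (28.6%) of the autosomal genes, beside 14% and 29.1% of all tested genes. Among genes with a mean count above 100, the median log2 fold change, adults minus embryos, was -1.50 over 56 genes of Z(diff), -1.24 over 94 genes of the PAR and -0.66 over 4013 autosomal genes. Over the same genes, each embryo has a median log2 difference from the embryo mean, with 2 CPM added. The SD of that median over the 6 embryos was 0.0847, 0.0691 and 0.0451. It covers the spread between embryos only, not that between the adults.

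The medians of the adults lay farthest apart in Z(diff). With 2 CPM added, the median gene of Z(diff) had a log2 difference from the embryo mean of -0.95 in the female and -1.97 in the male adult. In the PAR the values were -0.99 and -1.42, and on autosomes -0.66 and -0.72. With 1 library per sex these differences between the adults were not tested. The count minimum moved the values: among genes with a mean count above 500 the medians were -1.65 in Z(diff), -0.69 in the PAR and -0.77 on autosomes, which put the PAR above the autosomes. Without the adult female the medians of Z(diff), PAR and autosomes were -2.25, -1.62 and -0.91, and without the adult male -1.07, -1.08 and -0.74.

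H4K16ac is an acetylation of histone H4 that accompanies active chromatin and, in *Drosophila*, the dosage-compensated X of males. Genes for enzymes that write or erase histone acetylation were looked up by their numbers in the table. There the acetyltransferase MOF works in the MSL complex, with the scaffold MSL1, the ubiquitin ligase MSL2, the chromodomain protein MSL3 and the RNA helicase MLE. CBP, GCN5 and TIP60 are further acetyltransferases and SIRT1 is a sirtuin deacetylase. All 22 listed genes were tested, of which 2 were called higher and 5 lower by edgeR, where 10.9% and 18.8% of all tested genes were. Both adults lay above all embryos for 2 and below for 10, where 14% and 29.1% of all tested genes did, with a median log2 fold change over all tested genes of -0.69. DESeq2 called 12 of the 22, and edgeR called 11 without the adult female and 11 without the adult male. The lists come from the study, and the intron genes were chosen there on these embryos.

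The 4 acetyltransferases MOF, CBP, GCN5 and TIP60 were called lower in adults by edgeR, as were 18.8% of all tested genes. MOF (jg3349) had 1 read in the female and 0 reads in the male adult, against 5.19, 27.2 and 48.0 CPM as lowest, median and highest embryo. The ratio of the embryo mean to the pooled adult level was 111 (95% counting interval 19.9 to 4371, edgeR adjusted p = 0.00771). CBP (jg3149) had 0 reads in both adults and 13.7 to 65.2 CPM in the embryos, at least 21.6-fold lower in adults (edgeR adjusted p = 0.00206).

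GCN5 (jg16372), the only one of them with more than 3 reads in each adult, had 15.2 CPM in the adult female and 9.65 CPM in the adult male, against 33.7, 56.6 and 73.6 CPM. It fell by 2.18 on the log2 scale (SE 0.50, edgeR adjusted p = 0.0110). TIP60 (jg7034) had 0 adult reads but only 1.36 to 17.1 CPM in the embryos, the lowest of which lies under the level of 3 reads in the adult male, so its bound was 4.78-fold. Its edgeR adjusted p was 0.0261, and 0.0708 without the adult female and 0.0616 without the adult male. SIRT1 (jg8800) overlapped, with 143 CPM in the adult female, 33.8 CPM in the adult male and 89.6 to 137 CPM in the embryos (log2 fold change -0.37, SE 0.50, edgeR adjusted p = 0.598). The female lay above and the male below every embryo.

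Of MSL1, MSL2, MSL3 and MLE, none was called by the edgeR fit of the 8 libraries, while DESeq2 called MSL2 (adjusted p = 0.0217) and MSL3 (adjusted p = 0.0496) lower and edgeR over all 14 libraries called MSL3 lower (adjusted p = 0.0344). MSL1 (jg9702) had 0 reads in the adult female and 30.8 CPM in the adult male, inside the 13.2 to 36.8 CPM of the embryos. MSL2 (jg13090) had 0 reads in both adults and 0 to 7.74 CPM in the embryos, so its bound was 2.71-fold (edgeR adjusted p = 0.0701). MLE (jg10843) had 0 reads in the female and 106 CPM in the male, below the 130.1 to 252 CPM of every embryo (edgeR adjusted p = 0.297). MSL3 (jg12255) had 28.7 CPM in the female and 1 read in the male, below 53.8 to 133 CPM (edgeR adjusted p = 0.0908).

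In the adults, MSL1 and MLE reads came from the male alone, and 64 of the 65 adult reads of MSL3 from the female. Neither sex had a replicate adult, so these differences between the adults were not tested. In other RNA-seq data of adults, the paper reports no female bias for any of the MSL orthologues. Left to the female alone, MSL1 and MLE were called lower (edgeR adjusted p = 0.00222 and 8.72e-05), and left to the male alone MSL3 was (edgeR adjusted p = 7.37e-04). Over all tested genes, 2606 had more than 3 reads in one adult and 0 in the other, and for 139 the level in the former was at least 100 CPM.

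**Figure D5:**
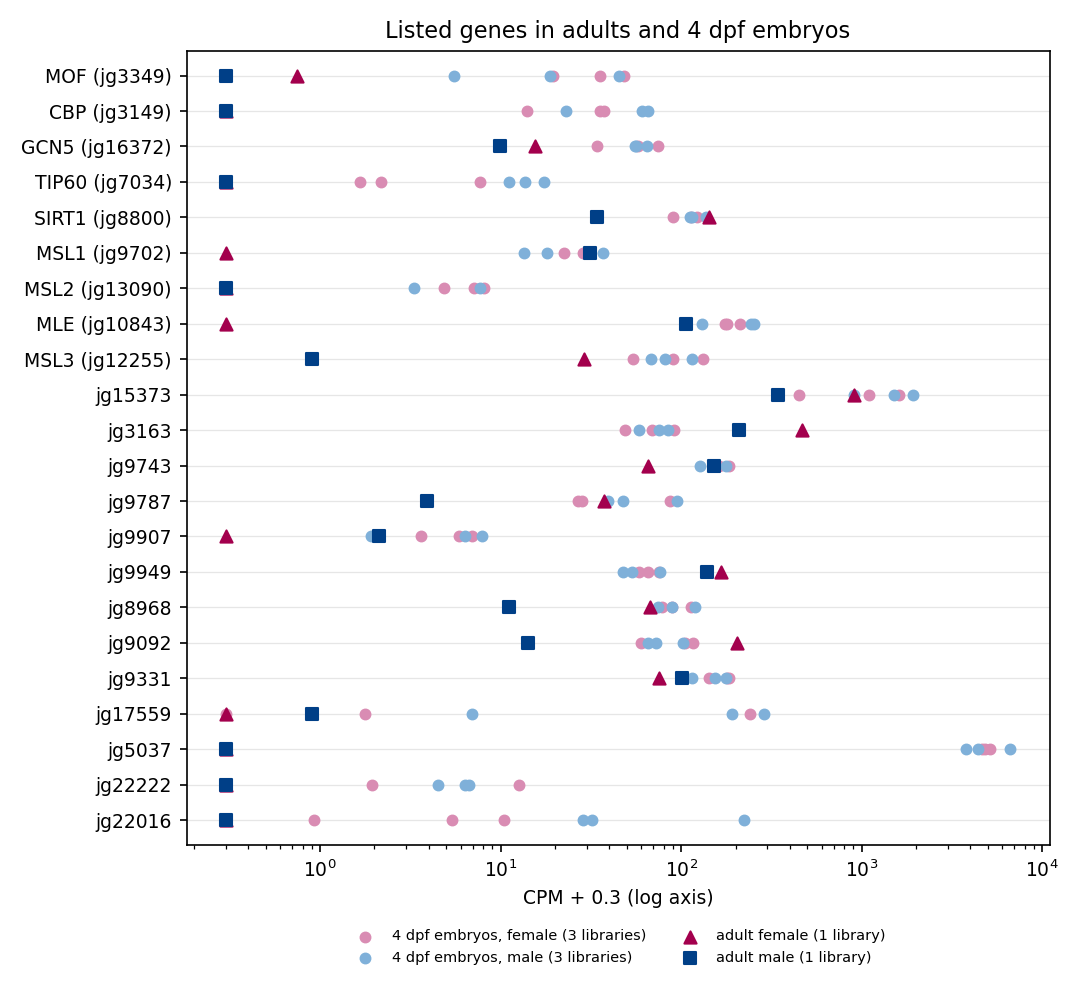
Levels of the 22 listed genes as CPM plus 0.3 on a log axis, with circles for the 6 embryos at 4 dpf, a triangle for the adult female and a square for the adult male. From the top stand acetylation genes, MSL genes, qPCR reference genes, Z(diff) genes, PAR genes and genes of the intron analysis; the adults sit above all embryos for jg3163 and jg9949 only.

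The study used jg3163 and jg15373 as RT-qPCR references among young and old adults, a use on which a comparison with embryos does not bear. jg3163 had 468 CPM in the adult female and 207 CPM in the adult male, against 48.4, 72.1 and 91.1 CPM in the embryos, and rose by a log2 fold change of 2.25 (SE 0.37, edgeR adjusted p = 0.00227). jg15373 overlapped, with 911 and 342 CPM in the adult female and male and 449.6 to 1923 CPM in the embryos (log2 fold change -0.99, SE 0.57, edgeR adjusted p = 0.214). The 1–2 dpf embryos had 54.8 to 113 CPM of the former and 77.7 to 277 CPM of the latter.

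Of the 4 listed Z(diff) genes, jg9949 was called higher, with 166 CPM in the adult female and 139 CPM in the adult male above 47.0 to 75.5 CPM in the embryos (log2 fold change 1.29, SE 0.32, edgeR adjusted p = 0.0156). jg9743, jg9787 and jg9907 overlapped with the embryos, at log2 fold changes of -0.55, -1.38 and -2.53 that were not called. The 3 PAR genes were not called either. jg8968 lay below the embryos at 67.2 and 10.9 CPM in the adult female and male against 73.7 to 118 CPM, and jg9331 at 74.8 and 100.1 CPM against 115 to 183 CPM. jg9092 had 204 CPM in the female, above every embryo, and 13.9 CPM in the male, below every embryo.

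The last 4 listed genes came from the study's search for sex-biased intron retention. After manual inspection the study judged all its significant hits in that search to be false positives. Among these 4 genes, jg5037 is annotated as similar to a serine/arginine repetitive matrix protein of the kind that takes part in splicing. It had 3785, 4726 and 6659 CPM as lowest, median and highest embryo and 0 reads in both adults. It was at least 2715-fold lower in adults (edgeR adjusted p = 2.32e-06), and at 1–2 dpf had 1.09 to 234 CPM, so the level was high at 4 dpf alone among the 3 stages sampled. Its intron lies on the minus strand of chromosome 18, between 16495498 and 16500882. jg22016, which carries a Tudor domain, had 0 adult reads and a wide embryonic range of 0.620 to 224 CPM (edgeR adjusted p = 0.0704). The uncharacterized jg17559 had 1 adult read and 0 to 287 CPM at 4 dpf, after 12527 to 48927 CPM at 1–2 dpf, and jg22222 had no adult reads, 0 to 12.3 CPM at 4 dpf and 0.446 to 3072 CPM at 1–2 dpf.

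Some adult reads fell outside the test. Genes outside the test took 8.77% of the reads of the adult female and 3.77% of those of the adult male, against 0.110% to 0.164% in the embryos at 4 dpf. Of 78 untested genes with 100 or more reads in the adult female, 70 had 0 reads in the adult male, and the filter passes over such genes because it asks for reads in 2 libraries.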

How the data were processed

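The table that the authors deposited holds raw counts, 1 column per library. Per the study's methods, Cogent NGS (version 2.0.1) made it from SMART-Seq mRNA libraries with UMIs; counts were of all reads, not collapsed by UMI, so PCR copies are included and intervals cover counting error only. The genome assembly was that of the authors, and whether counting used strand was not given in the sources used here, so overlapping genes may share reads. Groups came from the sample titles.

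Genes were kept by filterByExpr, scaled by TMM and tested with edgeR 4.0.16 (glmQLFit, glmQLFTest, limma 3.58.1, R 4.3.3) on the 2 adults and 6 embryos at 4 dpf, with Benjamini-Hochberg adjustment over all 10417 genes and a threshold of 0.05. Levels are CPM on the TMM scale, with the 1–2 dpf libraries scaled to the same reference. A group with 0 reads was given the level of 3 reads in its shallowest library, and ratios to groups with few reads divide the mean of the higher group by the pooled level of the lower one and have 95% Poisson intervals. The genes named were, per direction among separated and called genes, the 6 with the smallest p, the 5 with the highest level, the 3 with the widest gap and the 3 with the largest ratio between the adults, and all genes of the lists; stretches of neighbouring genes and the genes within them were added after their values were seen. The comparison, the gene lists and the rules were chosen with earlier results of these data known. Regions were bounded by gene numbers: Z(diff) jg9743 to jg9949, PAR jg8968 to jg9331, autosomes below jg8000 or from jg10027. Alternatives were DESeq2 1.42.0, RLE and upper-quartile scaling, other filters, a sex covariate, all 14 libraries, thinning to 1840926 reads, centring on the median gene and leaving out each library. The scripts were tested on simulated data. No groups share replicate numbers that pair samples.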

Additional observations from a re-analysis of the deposited data

Results flagged for a closer look

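The adults lay on opposite sides of all 6 embryos for 942 genes, 9.04% of those tested. The female was above and the male below for 497 of them (4.77% of those tested), and the male above and the female below for 445 (4.27%). In 600 the lower adult had 0 reads, and in 268 both adults had more than 3 reads. With 1 library per sex the difference was not tested.

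In 11 of the 53 measures examined, 1 of the 6 embryos stood apart from the other 5 by more than Dixon's 95% critical value. A gene with reads in 1 embryo only always passes that value, as jg14829, jg13993, jg179 and jg3634 did. The 11 flags therefore cannot be set against a chance rate. Of genes higher in adults, jg14829 had its only reads in 4 dpf female replicate 11 (0.207 CPM), jg13993 in 4 dpf male replicate 2 (0.136 CPM), jg179 in 4 dpf female replicate 10 (0.165 CPM) and jg3634 in 4 dpf male replicate 2 (1.22 CPM). The highest embryo of jg5859 was 4 dpf male replicate 2, at 13.6 CPM against at most 3.52 CPM. For jg16286 it was 4 dpf female replicate 11, at 1.65 CPM against at most 0.195 CPM, and for jg14919 4 dpf female replicate 10, at 2.14 CPM against at most 0.324 CPM. The embryo that stood apart had 1 read of jg14829, jg13993 and jg179, 9 reads of jg3634, 8 of jg16286 and 13 of jg14919. Of genes lower in adults, jg14951 was highest in 4 dpf female replicate 11, at 28409 CPM against 19016 to 22228 CPM, and jg13290 in 4 dpf female replicate 7, at 10471 CPM against 8069 to 8914 CPM. jg9484 was lowest in 4 dpf female replicate 11, at 124 CPM against 197 to 234 CPM. The Tudor gene jg22016 was highest in 4 dpf male replicate 8, at 224 CPM against at most 31.6 CPM.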

How the results depend on the processing

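Counts of calls stayed within 1.5 times under 8 of the 9 alternatives that kept all 8 libraries; with a mean count above 100, 909 genes were called lower, 827 lay above and 1418 below all embryos, as fewer genes were tested. Leaving out 1 library gave 950 to 1353 higher and 1654 to 2688 lower calls, 1444 to 2942 genes above and 3080 to 4505 below; without an adult, 1 library has to lie apart rather than 2. Of the listed genes 12 were called by DESeq2 and 7 to 11 with 1 library left out. Medians for Z(diff), PAR and autosomes were -1.26, -0.98 and -0.37 by DESeq2, -1.26, -0.98 and -0.39 with RLE, -1.65, -1.33 and -0.79 with a sex covariate, -0.82, -0.55 and 0.029 after centring, and -1.65, -0.69 and -0.77 above a mean count of 500. With all 14 libraries PAR and autosomes were -1.32 and -0.73, and Z(diff) ending at jg9907 gave -1.65. Without 1 library they spanned -2.25 to -1.07, -1.62 to -1.08 and -0.91 to -0.64. Directions turned, without a call in the comparison as reported, for jg9092 with a sex covariate (-0.10) or with 1 library left out (-2.73 to 1.23), jg8800 after centring (0.31) or with 1 library left out (-1.85 to 0.31), jg9743 after centring (0.14) and jg9702 with 1 library left out (-9.95 to 0.22). No paired analysis was possible because the adults share fewer than 2 replicate numbers with the embryos of their sex. Depth limits genes near 3 reads, which is 1.34 CPM in the adult female and 1.81 CPM in the adult male. The cause of these moves was not tested.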
